A study of Mus musculus with 20 samples.

Results

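The genes of 10 receptor chains that carry myeloid growth factor signals were examined in the histone ChIP-Seq of Lin- bone marrow cells, which remain after cells with markers of mature lineages are depleted: *Csf1r*, *Csf3r*, *Csf2ra*, *Il3ra*, *Il5ra*, *Csf2rb*, *Csf2rb2*, *Il6ra*, *Il6st*, and *Ifngr1*. Members were all deposited peaks that touched 1 of these gene bodies, as annotated in GENCODE M21 on mm10, or the 30 kb on either side of it. The rule took 794 of the 591292 peaks in 12 lists. The windows of *Csf2rb* and *Csf2rb2* overlap, so totals over the genes count every shared peak a single time. WT mice were Ep300 fl/fl without Cre, Ep300Δ/Δ mice were Mx1-Cre Ep300 fl/fl, Tet2-/- mice were Ep300 fl/fl Tet2-/-, and Ep300Δ/ΔTet2-/- mice were Mx1-Cre Ep300 fl/fl Tet2-/-. Every group therefore carried the floxed *Ep300* alleles, and the methods describe 3 doses of poly(I:C) given every other day from 6 to 8 weeks of age in all of them. The interferon-inducible Mx1-Cre was present only in the groups with *Ep300* deleted, so effects of Cre and of the deletion cannot be told apart, whereas *Tet2* was deleted in the germline. Each genotype and mark has 1 library, and the number of mice behind it is not given in the sources used here.

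A growth factor receptor of the myeloid lineage is either a kinase of its own or a pair of chains that borrow JAK kinases. *Csf1r* encodes the receptor tyrosine kinase for M-CSF and IL-34, which macrophages need, and *Csf3r* the receptor for G-CSF, which neutrophil production needs. The α chains encoded by *Csf2ra*, *Il3ra*, and *Il5ra* bind GM-CSF, IL-3, and IL-5, and signal through the common β chain encoded by *Csf2rb*. *Csf2rb2* encodes a second β chain of the mouse that serves IL-3 alone. *Il6ra* and *Il6st* encode the IL-6 receptor and gp130, the signaling chain of the IL-6 family, and *Ifngr1* encodes the ligand-binding chain of the interferon-γ receptor.

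H3K27ac marks active promoters and enhancers, H3K4me1 marks enhancers whether or not they are active, and H3K4me3 marks mainly promoters. The authors called peaks of each library over an H3 library, and a peak list says where a mark passed the caller's threshold, not how much of it there was. Peak lists carry no read totals, so sequencing depth is unknown. Because no genotype has a second library of a mark, the variation from mouse to mouse is unknown, differences between genotypes were not tested, and no *P* value is given. Fold enrichments are the authors' and are given here with the percentile rank of the peak in its own list, where a high percentile means a strong peak. They are not amounts that can be compared between lists. A region present in a first list was called lost when the merged region held no peak of the second list, and gained in the opposite case, with 1 bp of overlap enough to count as present.

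Stem and progenitor genes were marked in every list. Promoters, taken as 3 kb up- and downstream of transcript starts, held H3K4me3 for 10 of 10 stem and progenitor markers in every list, and H3K27ac for 10 in WT and Ep300Δ/Δ cells and 8 in both *Tet2*-null lists. Other lineages were also represented and moved with genotype: of 6 mature neutrophil markers, H3K27ac was called at 3 in WT, 0 in Ep300Δ/Δ, 1 in Tet2-/-, and 0 in Ep300Δ/ΔTet2-/- cells, and H3K4me3 at 3 in WT and at 1 in each of the other lists. Of 5 B cell markers, H3K4me3 was called at 3, 2, 1, and 0 in the same order of genotypes. Of 4 macrophage markers, H3K4me3 was called at 3 in all lists and H3K27ac at 2, 1, 2, and 1. The 3 eosinophil markers held H3K4me3 in every list, with H3K27ac at 2, 1, 2, and 1. Of 5 T cell markers, H3K4me3 was called at 1 in WT and 2 in the other lists, and H3K27ac at 1 throughout. Erythroid markers, 4 of 5 of which were found in the annotation, held H3K4me3 at 4 in every list and H3K27ac at 4, 3, 4, and 3. Of 5 genes of tissues outside blood, 1 held H3K4me3 in every list and none H3K27ac. In bulk chromatin, fewer cells of a type and less of a mark per cell cannot be told apart, and the part of cell composition in the results was not tested.

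The promoters of these genes differ widely in sequence, and those differences are shown first because start acetylation is set beside them below. RefSeq (GRCm38.p6) promoter sequences, 300 bases running from upstream to just past the start, matched 8 of the 10 genes. They are printed on the gene strand with each CpG dinucleotide in capitals for a gene acetylated at its start in all 4 lists (*Il3ra*, chr14:14346245-14346544, plus strand), a gene acetylated in neither *Tet2*-null list (*Csf3r*, chr4:126024409-126024708, plus strand), and a gene without acetylation in Ep300Δ/ΔTet2-/- cells (*Csf2rb2*, chr15:78305672-78305971, minus strand).
Il3ra promoter: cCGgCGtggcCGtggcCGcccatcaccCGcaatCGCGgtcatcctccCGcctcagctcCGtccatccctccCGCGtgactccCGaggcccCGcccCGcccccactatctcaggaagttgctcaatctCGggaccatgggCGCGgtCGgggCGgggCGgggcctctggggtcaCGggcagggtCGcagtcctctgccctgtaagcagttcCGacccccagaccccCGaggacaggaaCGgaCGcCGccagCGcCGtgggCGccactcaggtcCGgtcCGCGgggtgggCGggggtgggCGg
Csf3r promoter: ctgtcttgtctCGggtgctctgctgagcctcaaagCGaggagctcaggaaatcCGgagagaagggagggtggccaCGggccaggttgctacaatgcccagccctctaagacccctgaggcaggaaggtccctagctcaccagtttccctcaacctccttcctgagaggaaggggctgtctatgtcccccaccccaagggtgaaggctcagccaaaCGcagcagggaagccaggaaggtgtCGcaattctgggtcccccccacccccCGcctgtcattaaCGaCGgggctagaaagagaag
Csf2rb2 promoter: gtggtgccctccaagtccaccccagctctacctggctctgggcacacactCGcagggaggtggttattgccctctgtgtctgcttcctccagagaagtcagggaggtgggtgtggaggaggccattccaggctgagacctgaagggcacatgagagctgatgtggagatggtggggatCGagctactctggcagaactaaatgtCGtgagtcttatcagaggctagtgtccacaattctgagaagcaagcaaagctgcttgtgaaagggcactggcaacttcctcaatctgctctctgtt
The *Il3ra* promoter held 35 CpG, the *Csf3r* promoter 9, and the *Csf2rb2* promoter 3, against a median of 7 over 32851 RefSeq promoters. *Il6st* held 33, *Il6ra* 25, *Csf2ra* 23, and *Ifngr1* 14. *Il5ra* held 4. *Csf1r* and *Csf2rb* are not in that table.

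Regions away from promoters are shown for the sites that recur below, each as the 201 bases centered on the WT H3K27ac summit, on the plus strand of GRCm38. They are the strongest WT regions outside promoters assigned to *Ifngr1* (chr10:19570515-19570715), *Il5ra* (chr6:106725819-106726019), *Csf2ra* (chr19:61244463-61244663), and *Csf2rb2* (chr15:78267483-78267683), and capitals mark a match to the GATA motif AGATAA on either strand. The coding gene start nearest to the *Csf2rb2* region was that of *Ncf4*, 6589 bp away, against 20.1 kb to the nearest *Csf2rb2* start.
Ifngr1, 21.3 kb upstream: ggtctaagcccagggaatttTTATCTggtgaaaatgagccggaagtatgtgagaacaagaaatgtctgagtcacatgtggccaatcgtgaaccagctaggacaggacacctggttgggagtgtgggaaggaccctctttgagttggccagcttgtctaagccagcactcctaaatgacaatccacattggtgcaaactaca
Il5ra, 23.0 kb downstream: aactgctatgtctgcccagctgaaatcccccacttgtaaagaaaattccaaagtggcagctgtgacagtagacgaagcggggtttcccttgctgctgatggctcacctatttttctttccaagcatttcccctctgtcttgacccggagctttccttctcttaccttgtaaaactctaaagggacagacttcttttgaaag
Csf2ra, 16.2 kb upstream: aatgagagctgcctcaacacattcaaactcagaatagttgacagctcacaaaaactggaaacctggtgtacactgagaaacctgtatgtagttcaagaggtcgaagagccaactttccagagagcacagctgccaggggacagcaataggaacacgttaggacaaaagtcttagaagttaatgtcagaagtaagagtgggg
Csf2rb2, 38.1 kb downstream: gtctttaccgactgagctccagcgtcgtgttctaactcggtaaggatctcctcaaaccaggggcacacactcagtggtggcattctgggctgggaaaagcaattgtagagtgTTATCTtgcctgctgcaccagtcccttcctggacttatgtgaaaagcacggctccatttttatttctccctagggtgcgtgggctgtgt
Over the 45 WT H3K27ac summits at the receptor genes, 4 had this motif within 100 bp (8.89%), against 5.45% of all 29659 WT summits. The *Ifngr1* and *Csf2rb2* sequences each hold it in the form TTATCT. The other motifs, searched on both strands, were found at fewer receptor summits: RUNX (TGTGGTT) at 1 summit, CEBP (TTGCNNAA) at 2, STAT (TTCNNNGAA) at 1, IRF (GAAANNGAA) at 1, and PU.1 (GAGGAAGT) at 0, with 3.61%, 5.60%, 4.93%, 4.66%, and 1.49% over all WT summits. The *Csf2rb2* promoter printed above held a PU.1 and a STAT match, as 3.20% and 8.30% of all promoters did. A match describes letters and shows no binding.

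*Csf2rb* and *Csf2rb2* lie head to head on chromosome 15 and are near copies of each other. Their acetylated start regions could be aligned, and the aligned stretches are printed on the strand of each gene (*Csf2rb*, chr15:78326208-78326403; *Csf2rb2*, chr15:78305269-78305472, GRCm38), with every differing or unmatched base in capitals.
Csf2rb start: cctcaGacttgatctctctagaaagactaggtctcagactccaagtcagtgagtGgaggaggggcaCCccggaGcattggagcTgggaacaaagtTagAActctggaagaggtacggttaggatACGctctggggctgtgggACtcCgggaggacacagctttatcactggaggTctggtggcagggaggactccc
Csf2rb2 start: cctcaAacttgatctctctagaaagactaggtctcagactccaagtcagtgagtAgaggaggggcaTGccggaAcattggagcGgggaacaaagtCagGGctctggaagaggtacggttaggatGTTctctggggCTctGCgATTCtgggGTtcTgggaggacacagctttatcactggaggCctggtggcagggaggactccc
Of 204 aligned columns, 180 were identical (88.2%). The *Csf2rb* stretch lay in a region acetylated in all 4 lists, and the *Csf2rb2* stretch in a region called in WT, Ep300Δ/Δ, and Tet2-/- cells but not in Ep300Δ/ΔTet2-/- cells. Reads of 75 bp, the length given in the methods, could be placed apart: none of the 75-base words of either acetylated region occurred in the other gene, although 5.91% of the words of *Csf2rb* and 6.90% of those of *Csf2rb2*, each gene taken with 3 kb on either side, did. In the weaker acetylated region 0.062 kb upstream of the *Csf2rb* 5′ end, called in WT alone, 1.62% of the words were shared.

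Acetylated peaks at the receptor genes fell in number with *Ep300* deletion on both backgrounds. In the 10 windows together, H3K27ac peaks numbered 45 in WT, 31 in Ep300Δ/Δ, 34 in Tet2-/-, and 22 in Ep300Δ/ΔTet2-/- cells, and they covered 31.9, 14.4, 21.7, and 13.3 kb. The whole lists moved the same way, from 29659 to 22727 peaks and from 24539 to 18327. With every list kept to the same number of peaks, those with the lowest *q*, the receptor peaks numbered 26, 21, 26, and 22 in the same order. Gene by gene the count was lower after *Ep300* deletion for 7 of 10 genes on the WT background and for 6 of 10 on the *Tet2*-null background, and higher for 1 on each, *Il6ra* on the WT and *Il5ra* on the *Tet2*-null background. Over all protein-coding genes, 31.5% had a lower and 14.2% a higher count on the WT background, and 34.3% and 10.1% on the *Tet2*-null background, but only 66.3% and 65.8% of them had any peak in the first list. The median receptor gene had 4.0, 2.5, 3.0, and 2.0 peaks in the same order, against 2.0, 2.0, 2.0, and 1.0 for the median of 21938 protein-coding genes. H3K4me1 peaks numbered 163, 118, 140, and 128, of 107392, 90738, 98069, and 93465 in the lists. H3K4me3 peaks numbered 29, 25, 31, and 28, of 26289, 25012, 27807, and 27268.

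**Figure D1:**
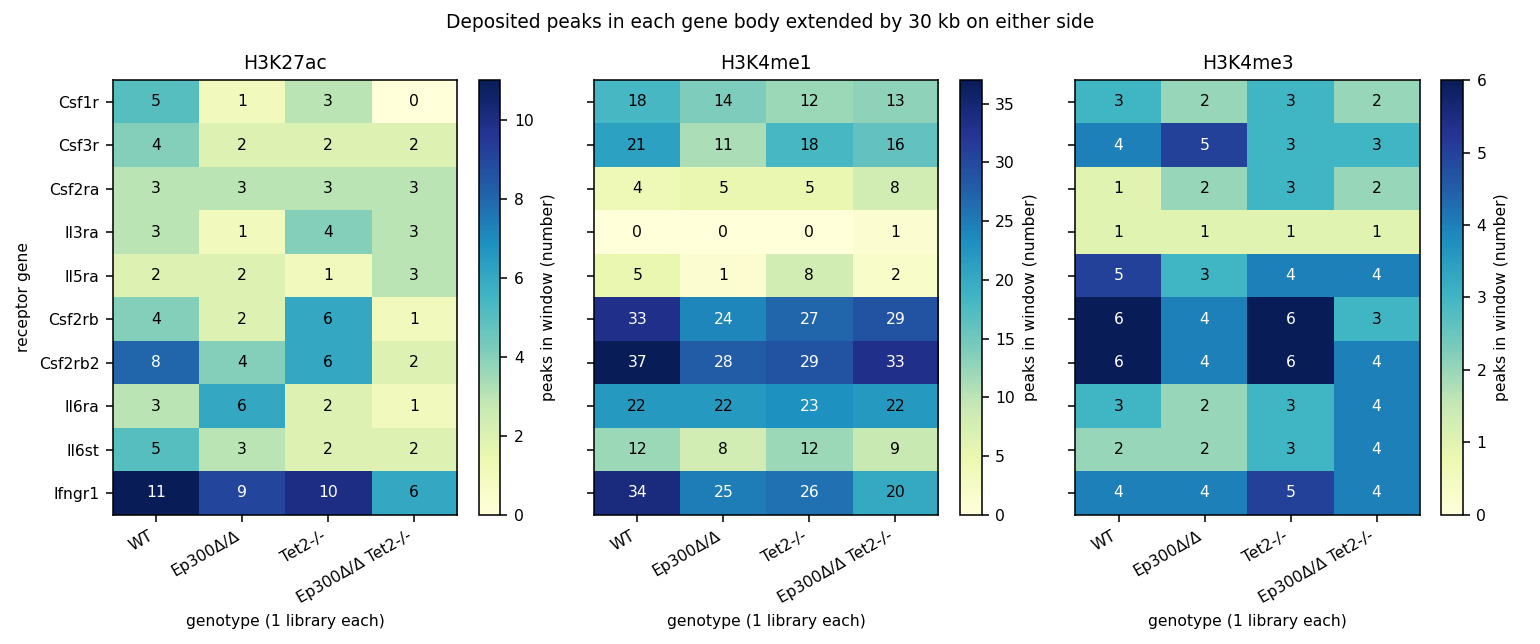
Number of deposited peaks in the window of each receptor gene (rows) for the 4 genotypes (columns, 1 library each) and the 3 marks (panels, color scaled to the largest value of each panel). *Ifngr1* had the most H3K27ac peaks in every list, 11, 9, 10, and 6, and *Csf1r* had 5, 1, 3, and 0.

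At the starts of the receptor genes, H3K27ac calls differed between genotypes at 3 receptor genes and H3K4me3 calls at 1. Within 3 kb of a gene's own transcript starts, H3K27ac was called at 9 of 10 genes in WT, 9 in Ep300Δ/Δ, 8 in Tet2-/-, and 6 in Ep300Δ/ΔTet2-/- cells. The same calls were made at 47.3%, 45%, 46.4%, and 43.1% of 21911 protein-coding gene symbols. H3K4me3 was called at 10, 9, 10, and 10 receptor genes and at 61.9%, 63.2%, 62.3%, and 62.7% of coding genes. With only peaks of a deposited *q* under 0.05, chosen after seeing the data, H3K27ac was called at 8 receptor genes in Ep300Δ/Δ cells and H3K4me3 at 9 in Ep300Δ/ΔTet2-/- cells, and the other receptor counts did not change. Acetylation was present in all 4 lists at 6 genes (*Csf2ra*, *Il3ra*, *Csf2rb*, *Il6ra*, *Il6st*, *Ifngr1*), in some lists at 3 (*Csf1r*, *Csf3r*, *Csf2rb2*), and in none at *Il5ra*. Over the coding genes these shares were 40%, 10.4%, and 49.6%, and H3K4me3 was called at the start in some but not all lists for 4.85%. All 5 genes with 14 or more CpG in the RefSeq promoter were among the 6, and the 3 with 9 or fewer were not. This order of CpG was seen after the peaks were known and covers 8 genes, so it is a description. Start calls over the coding genes were not split by CpG.

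**Figure D2:**
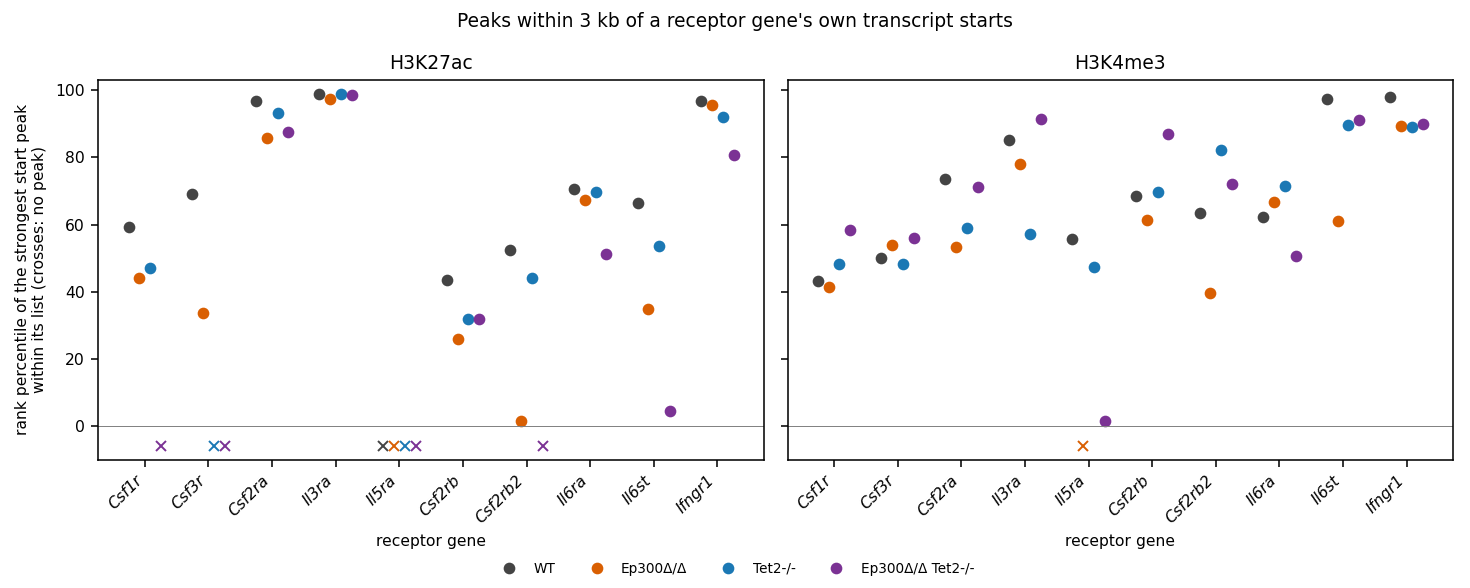
Percentile rank, within its own list, of the strongest peak within 3 kb of a receptor gene's own transcript starts (vertical axis) for each gene (horizontal axis) and genotype (colors, 1 library each). Crosses under the zero line mark genes with no such peak: for H3K27ac, 4 genes are crosses in Ep300Δ/ΔTet2-/- cells and only *Il5ra* in WT and Ep300Δ/Δ cells, and *Il5ra* in Ep300Δ/Δ cells is the only cross for H3K4me3.

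At *Csf1r* (chr18:61100598-61132149, plus strand), H3K27ac peaks numbered 5 in WT, 1 in Ep300Δ/Δ, 3 in Tet2-/-, and 0 in Ep300Δ/ΔTet2-/- cells. Of 4 WT regions, 1 was kept in Ep300Δ/Δ and 2 in Tet2-/- cells, where a region 54.8 kb downstream, nearest to *Hmgxb3*, was gained. The region that outlasted the others lay in an intron 7.64 kb downstream of the annotated 5′ end and 1.61 kb from another annotated *Csf1r* start (chr18:61107490-61108990). It was called at 7.89-fold in WT (percentile 59.2), 5.39-fold in Ep300Δ/Δ (44.0), and 6.24-fold in Tet2-/- cells (47.0). A weaker region 5.64 kb downstream, 99 bp from an annotated start, was called in WT and Tet2-/- cells only, at percentiles 1.59 and 5.56. A pair of exon-overlapping regions toward the 3′ end of the gene, 27.4 and 30.9 kb downstream and nearer to a start of *Hmgxb3*, was found in WT alone. H3K4me1 lay over all of these regions in all 4 lists, and H3K4me3 at the start was called in all 4, at percentiles 43.3, 41.4, 48.3, and 58.5 for WT, Ep300Δ/Δ, Tet2-/-, and Ep300Δ/ΔTet2-/- cells. *Csf1r* is known for an intronic enhancer called FIRE, whose position was not compared with these regions.

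*Csf3r* (chr4:126024550-126044440, plus strand) showed another pattern, in which the start was not called in either list without *Tet2*. The start region (chr4:126024116-126025169) was called at 9.72-fold in WT (percentile 69.0, −log10 *q* 25.8) and 4.68-fold in Ep300Δ/Δ cells (33.6, 5.63), and not in the others. H3K4me3 at the start was called in all 4 lists with percentiles of 50, 53.9, 48.2, and 55.9, and H3K4me1 overlapped the region in all 4. The only other acetylated region that lay nearer to *Csf3r* than to another coding gene, 5.63 kb upstream, was in the WT list alone (5.61-fold, percentile 38.1). The acetylated regions farther downstream belonged to the starts of neighbors: that of *Mrps15*, a mitochondrial ribosomal protein gene, was called in all 4 lists, and that of *Oscp1* in all but Ep300Δ/Δ cells.

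**Figure D3:**
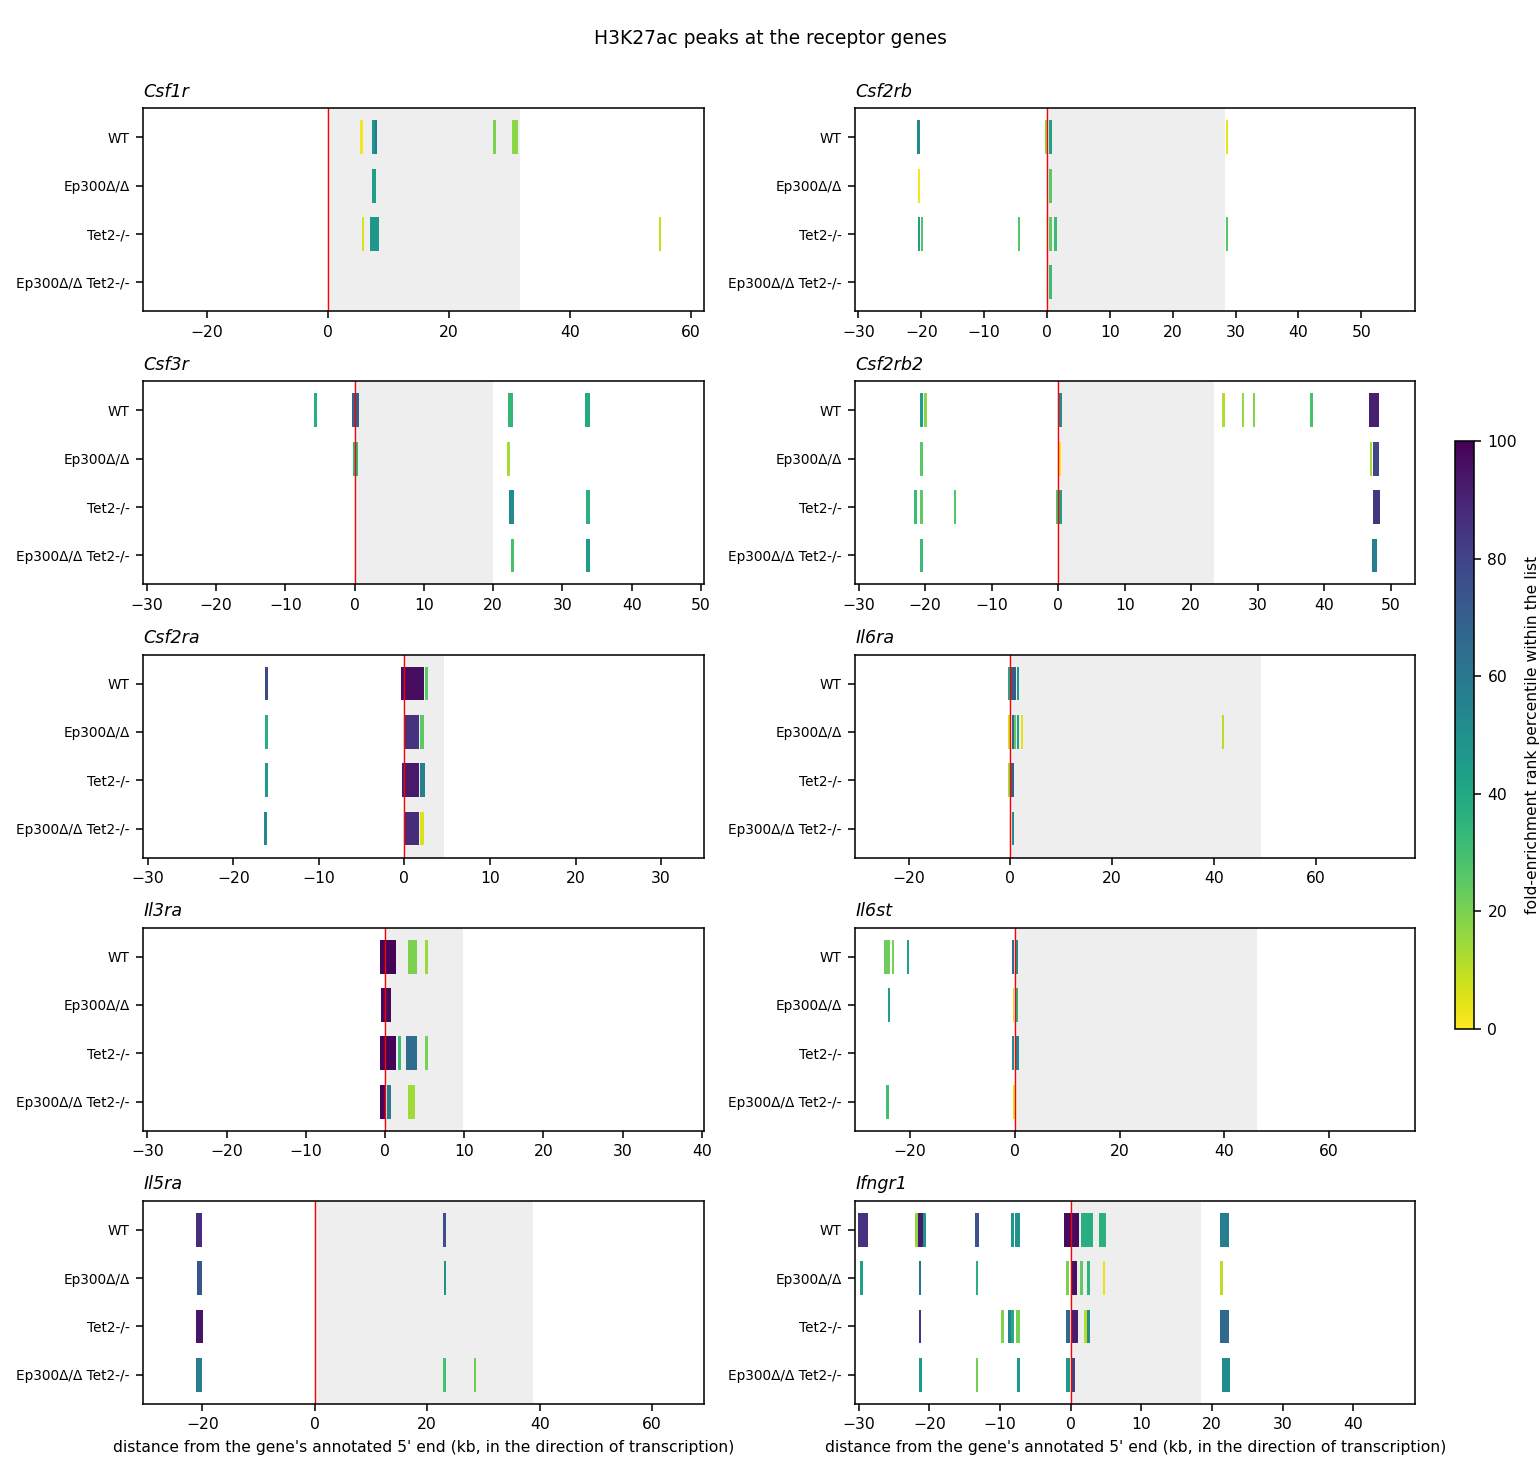
H3K27ac peaks in each receptor window, drawn as blocks to scale (narrow peaks widened to stay visible) along the distance from the gene's annotated 5′ end (kb, red line at the 5′ end, gray shading over the gene body), 1 row per genotype and colored by the percentile rank of the peak in its list. The bottom row, Ep300Δ/ΔTet2-/-, is empty for *Csf1r*, and *Csf2ra* and *Il3ra* keep dark start blocks in all 4 rows.

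The α chain genes for GM-CSF and IL-3 kept their start acetylation in every list, and at high rank. At *Csf2ra* (chr19:61223957-61228429, minus strand), the start region was called at percentiles 96.8, 85.7, 93.1, and 87.6 in WT, Ep300Δ/Δ, Tet2-/-, and Ep300Δ/ΔTet2-/- cells. At *Il3ra* (chr14:14346275-14356011, plus strand), it was called at 99.0, 97.3, 98.9, and 98.5, the highest rank of any receptor start in each list. The *Il3ra* window held 0 H3K4me1 peaks in WT, Ep300Δ/Δ, and Tet2-/- cells and 1 in Ep300Δ/ΔTet2-/- cells, and the *Csf2ra* window 4, 5, 5, and 8, against a median of 6.0, 5.0, 6.0, and 5.0 for protein-coding genes. The *Csf2ra* start region overlapped H3K4me1 in WT and Ep300Δ/ΔTet2-/- cells, and the *Il3ra* start region in Ep300Δ/ΔTet2-/- cells only. Around the kept start of *Il3ra* smaller regions changed. A region 3.35 kb downstream was called in WT (percentile 19.6), Tet2-/- (64.9), and Ep300Δ/ΔTet2-/- cells (14.1) and not in Ep300Δ/Δ cells, and one 5.22 kb downstream in WT and Tet2-/- cells only. *Csf2ra* had 1 acetylated region outside promoters, 16.2 kb upstream, and it was in all 4 lists (percentiles 78, 36.7, 45.9, and 53.0).

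*Il5ra* (chr6:106710357-106749037, minus strand), whose chain marks the eosinophil lineage, had no H3K27ac at its start in any list. H3K4me3 near the start was called at 21.6-fold in WT (percentile 55.7), 12.7-fold in Tet2-/- (47.3), and 2.66-fold in Ep300Δ/ΔTet2-/- cells (1.40), and was not called in Ep300Δ/Δ cells. The −log10 *q* of the Ep300Δ/ΔTet2-/- peak was 0.929, so by the stated limit of 1.30 the start would be absent from both lists with *Ep300* deleted. The marks lay inside the gene. An intronic region 23.0 kb downstream of the 5′ end (chr6:106725693-106726314) was acetylated at 11.9-fold in WT (percentile 76.3), 5.82-fold in Ep300Δ/Δ (49.2), and 5.19-fold in Ep300Δ/ΔTet2-/- cells (29.6), but not in Tet2-/- cells. A further intronic region, 28.5 kb downstream, was in the Ep300Δ/ΔTet2-/- list alone (percentile 22.2). H3K4me3 covered the place 23.7 kb downstream in all 4 lists, at percentiles 61.5, 48.8, 56.6, and 57.3. The remaining strong block of the window, 20.5 kb upstream, was the start of *Trnt1*, an enzyme of tRNA maturation, and was called in every list.

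The β chain genes parted from each other in Ep300Δ/ΔTet2-/- cells. The *Csf2rb* region 0.558 kb downstream of the 5′ end (chr15:78326062-78326557) was called in all 4 lists, at percentiles 43.5, 25.8, 24.4, and 31.8 in WT, Ep300Δ/Δ, Tet2-/-, and Ep300Δ/ΔTet2-/- cells. The aligned *Csf2rb2* region 0.346 kb downstream (chr15:78305130-78305620) was called at percentiles 52.3, 1.40, and 44.1 in WT, Ep300Δ/Δ, and Tet2-/- cells and not in Ep300Δ/ΔTet2-/- cells. The −log10 *q* of the Ep300Δ/Δ peak was 0.591, short of the 1.30 that corresponds to the stated *q* of 0.05, so by that limit the region would be absent there as well. H3K4me3 at the *Csf2rb2* start was called in all 4 lists (percentiles 63.4, 39.7, 82.2, and 72.0), as it was at *Csf2rb* (68.6, 61.5, 69.6, and 86.9).

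Further acetylation of the β chain locus was mostly found in 1 list. Downstream of *Csf2rb2*, 4 regions between 24.9 and 38.1 kb from its 5′ end were in the WT list alone, at percentiles of 11.7 to 29.2, and H3K4me1 covered 3 of them in all 4 lists and the fourth in all but Ep300Δ/Δ cells. On the other side, regions 4.51 kb upstream and 1.34 kb downstream of the *Csf2rb* 5′ end and one 0.104 kb upstream of that of *Csf2rb2* were in the Tet2-/- list alone, at percentiles of 27.3, 31.9, and 27.2. A region 28.6 kb downstream of the *Csf2rb* 5′ end was called in WT (4.19) and Tet2-/- cells (26.3). The strongest acetylated region of the *Csf2rb2* window lay 47.5 kb downstream, 1862 bp from a start of *Ncf4*, a component of the phagocyte NADPH oxidase, and was called in every list (91.3, 78.9, 84.5, and 57.8).

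Within the IL-6 receptor pair, *Il6ra* (chr3:89864059-89913196, minus strand) kept its main start region in every list, at percentiles 70.5, 67.3, 69.7, and 51.2. The flanking regions thinned out: the one 0.302 kb upstream was called in all but Ep300Δ/ΔTet2-/- cells, and the one 1.45 kb downstream in WT and Ep300Δ/Δ cells only. *Il6ra* was the only receptor gene that gained H3K27ac regions from WT to Ep300Δ/Δ cells, 2.31 and 41.8 kb downstream. Their −log10 *q* values were 1.04 and 1.01, short of the stated limit, so neither would count as a gain under it.

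*Il6st* (chr13:112464070-112510086, plus strand) had 5 acetylated regions in WT cells, 3 in Ep300Δ/Δ, 2 in Tet2-/-, and 2 in Ep300Δ/ΔTet2-/- cells. The region 0.334 kb upstream was in all 4 lists, but low in those with *Ep300* deleted (percentile 6.47 and 4.57 in Ep300Δ/Δ and Ep300Δ/ΔTet2-/- cells, 66.3 and 52.6 in WT and Tet2-/- cells). The region 0.534 kb downstream was called in WT, Ep300Δ/Δ, and Tet2-/- cells and not in Ep300Δ/ΔTet2-/- cells. Of the regions 20.4, 23.3, and 24.5 kb upstream, the nearer pair was in the WT list alone, and the most distant was called in all but Tet2-/- cells. H3K4me3 at the start was called in every list (97.3, 61.1, 89.7, and 91.3).

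*Ifngr1* (chr10:19591949-19610229, plus strand) had the largest set, 13 acetylated regions over the 4 lists, of which 11 lay outside promoters. Its start was called in every list, at percentiles 96.9, 95.7, 92.2, and 80.6 in WT, Ep300Δ/Δ, Tet2-/-, and Ep300Δ/ΔTet2-/- cells. The strongest region outside promoters, 21.3 kb upstream (chr10:19570386-19570997), was also called in every list (93.3, 63.1, 84.6, and 45.5), as was one 21.8 kb downstream of the 5′ end (57.5, 10.4, 66.3, and 52.1). A region 29.4 kb upstream (chr10:19561776-19563224), 16.3-fold over H3 and at percentile 85.7 in WT, was called at 43.5 in Ep300Δ/Δ cells and in neither *Tet2*-null list. A region 4.46 kb downstream had the same pattern (36.1 and 3.56), and its Ep300Δ/Δ peak had a −log10 *q* of 0.523. The region 2.27 kb downstream was called in WT, Ep300Δ/Δ, and Tet2-/- cells and was absent from Ep300Δ/ΔTet2-/- cells. Under the definition of active enhancers used in the study, H3K27ac with H3K4me1 outside promoters, *Ifngr1* had 9, 5, 6, and 4 enhancers, out of 19, 8, 10, and 5 in all 10 windows and 9505, 5093, 6548, and 3720 in the whole lists. H3K4me1 overlapped every acetylated *Ifngr1* region in every list, except the start region in Tet2-/- cells.

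Counted together, the H3K27ac shares lost and gained at the receptor genes differed from those of all regions by less than counting error. From WT to Ep300Δ/Δ cells, 20 of 44 H3K27ac regions were lost (45.5%; exact Clopper-Pearson 95% interval, 30.4% to 61.2%), against a background of 39.7% of all regions, and 2 of 26 were gained (7.69%; 0.946% to 25.1%) against 12.8%. From Tet2-/- to Ep300Δ/ΔTet2-/- cells, 17 of 34 were lost (50%; 32.4% to 67.6%) against 37.8%, and 4 of 21 were gained (19.0%; 5.45% to 41.9%) against 15.0%. From WT to Tet2-/- cells, a contrast that shares the WT list with the first, 19 of 43 were lost (44.2%; 29.1% to 60.1%) against 35.6%, and 7 of 31 were gained (22.6%; 9.59% to 41.1%) against 20.3%. All 6 intervals contain the background. They cover counting error only, and regions of 1 gene are not independent. With only peaks of a −log10 *q* of at least 5, the loss from WT to Ep300Δ/Δ cells was 24 of 36 regions (66.7%; 49.0% to 81.4%) against 45.8%, and that interval lay above the background.

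**Figure D4:**
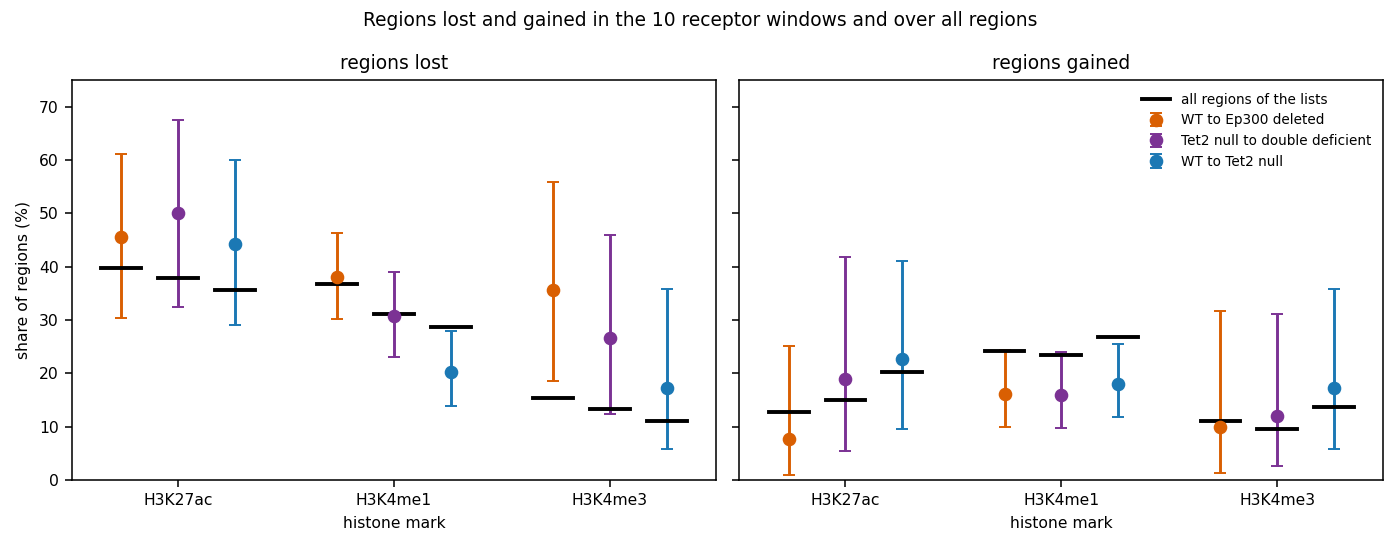
Share of regions lost (left, % of the regions of the first list) and gained (right, % of the regions of the second list) for the 3 marks and 3 contrasts (colors, with Ep300Δ/ΔTet2-/- named double deficient in the key). Points are the 10 receptor windows with exact 95% intervals, and black bars are all regions of the lists. The bars of all H3K27ac contrasts lie within the intervals of their points, the interval for H3K4me3 loss from WT to Ep300Δ/Δ cells lies above its bar, and those for H3K4me1 loss and gain from WT to Tet2-/- cells lie below theirs.

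The share lost was higher away from promoters in all 3 contrasts, as over all regions. From WT to Ep300Δ/Δ cells, 14 of 21 receptor regions outside promoters were lost (66.7%; 43.0% to 85.4%; background 62.5%), against 6 of 23 at promoters (26.1%; 10.2% to 48.4%; background 26.5%). From Tet2-/- to Ep300Δ/ΔTet2-/- cells, the figures were 6 of 10 outside promoters (60.0%; 26.2% to 87.8%; background 61.9%) and 11 of 24 at promoters (45.8%; 25.6% to 67.2%; background 26.8%). From WT to Tet2-/- cells, 15 of 21 outside promoters (71.4%; 47.8% to 88.7%; background 55.3%) and 4 of 22 at promoters (18.2%; 5.19% to 40.3%; background 24.1%) were lost, and only in this contrast did the intervals of the receptor regions not overlap. Over the 4 lists, 53 acetylated regions were found at the receptor genes, of which 12 were in all 4 lists (22.6%) and 22 in 1 (41.5%), against 35.5% and 37.7% of all 35252 regions. Of the 27 outside promoters, 11 were in WT alone (40.7%; 32.1% of all regions outside promoters), 4 in Tet2-/- alone (14.8%; 14.1%), and 3 in all 4 lists (11.1%; 14.4%), namely those of *Ifngr1* and *Csf2ra* described above.

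The regions lost with *Ep300* deletion were mostly among the weaker ones of their list. The median percentile in the first list was 19.8 for the 20 regions lost from WT to Ep300Δ/Δ cells and 67.7 for the 24 kept, and over all regions it was 26.6 and 69.0. From Tet2-/- to Ep300Δ/ΔTet2-/- cells it was 27.3 for those lost and 66.3 for those kept (26.3 and 68.2 over all regions). The gap was narrower from WT to Tet2-/- cells, at 29.2 and 50.5 (25.8 and 67.2), where 2 of the 9 receptor regions in the strongest of 4 equal parts of the WT list were lost, against 1.26% of all such regions. None of the 16 receptor regions above the median of the WT list was lost from WT to Ep300Δ/Δ cells (upper limit of the exact interval, 20.6%), against 12.9% of all such regions. The *Csf2rb2* start was kept only through the Ep300Δ/Δ peak short of the stated *q*, and without such peaks 1 of 16 was lost (6.25%; 0.158% to 30.2%), against 14.4% of all. From Tet2-/- to Ep300Δ/ΔTet2-/- cells, 3 of 16 such regions were lost (18.8%; 4.05% to 45.6%; 11.8% of all), namely 2 of *Ifngr1* and 1 of *Il6st*. From WT to Tet2-/- cells, 4 of 16 were lost (25.0%; 7.27% to 52.4%; 11% of all): the *Csf3r* start, the *Il5ra* intronic region, and the *Ifngr1* regions 29.4 and 13.3 kb upstream.

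**Figure D5:**
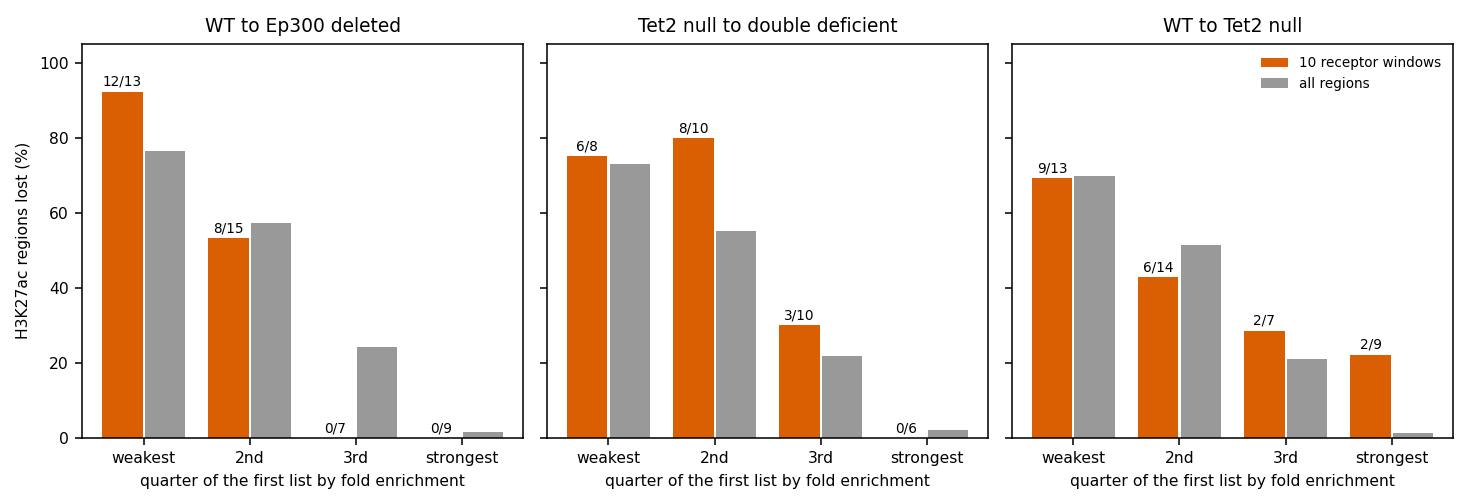
H3K27ac regions lost (%) by strength, with the first list of each contrast (panels) divided into 4 equal parts by fold enrichment (horizontal axis, weakest to strongest). Orange bars are the 10 receptor windows, with lost over total regions printed above each, and gray bars are all regions. From WT to Ep300Δ/Δ cells, 12 of 13 of the weakest and 0 of 9 of the strongest receptor regions were lost.

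H3K4me1 was kept at most places where acetylation went. Of the 20 H3K27ac regions lost from WT to Ep300Δ/Δ cells, 14 overlapped an H3K4me1 peak in both genotypes, as did 14 of the 17 lost from Tet2-/- to Ep300Δ/ΔTet2-/- cells and 18 of the 19 lost from WT to Tet2-/- cells. H3K4me1 was present in the second genotype at 70.0%, 82.4%, and 94.7% of these regions, and at 73.5%, 71.9%, and 75.8% of all lost H3K27ac regions. H3K4me1 regions of the receptor genes were themselves lost at 57 of 150 (38.0%; 30.2% to 46.3%) from WT to Ep300Δ/Δ cells, 42 of 137 (30.7%; 23.1% to 39.1%) from Tet2-/- to Ep300Δ/ΔTet2-/- cells, and 28 of 138 (20.3%; 13.9% to 28.0%) from WT to Tet2-/- cells. The backgrounds were 36.7%, 31.1%, and 28.6%, so the last interval lay below its background. Gains were 18 of 111, 18 of 113, and 24 of 134 regions (16.2%, 15.9%, and 17.9%), against 24.1%, 23.4%, and 26.8%, and only the interval of the last, 11.8% to 25.5%, lay below its background. The locus with the most H3K4me1 was that of the β chains, with 37, 28, 29, and 33 peaks in the *Csf2rb2* window, a WT count at percentile 98.1 of the protein-coding genes. The low H3K4me1 shares from WT to Tet2-/- cells were not particular to the receptor genes. Around 26 other cytokine receptor genes, 21.2% of regions were lost and 18.3% gained, and around 14 signal transducer genes 22.6% and 17.4%. Around 8 ligand genes the shares were 34.0% and 21.4%.

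H3K4me3 regions were lost at 10 of 28 (35.7%; 18.6% to 55.9%) from WT to Ep300Δ/Δ cells against a background of 15.4%, at 8 of 30 (26.7%; 12.3% to 45.9%) from Tet2-/- to Ep300Δ/ΔTet2-/- cells against 13.3%, and at 5 of 29 (17.2%; 5.85% to 35.8%) from WT to Tet2-/- cells against 11.1%. The first interval lay above its background and the others contained theirs. The receptor regions lost in that first contrast were mostly weak. Merged over all 4 lists, those in WT but not Ep300Δ/Δ cells ranked at WT percentiles of 3.43 to 21.8, except the *Il5ra* start (55.7). From WT to Ep300Δ/Δ cells, 5 of 7 were lost outside promoters (71.4%; 29.0% to 96.3%; background 30.7%). At promoters, 5 of 21 were lost (23.8%; 8.22% to 47.2%; background 10.6%), the *Il5ra* start among them. H3K4me3 was called at the starts of 9 of 10 receptor genes in all 4 lists. Over 21911 coding genes, it was called at the start in all 4 lists for 60.1% and in some but not all for 4.85%. Gains were 2 of 20 (10.0%), 3 of 25 (12%), and 5 of 29 (17.2%), against 11.1%, 9.45%, and 13.6%.

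Other genes of the pathway were counted in the same way, against the backgrounds given above. Around 26 other cytokine receptor genes, 57 of 160 regions were lost from WT to Ep300Δ/Δ cells (35.6%) and 41 of 109 from Tet2-/- to Ep300Δ/ΔTet2-/- cells (37.6%). Around 14 genes of signal transducers such as the JAK kinases and STAT factors, 53 of 124 (42.7%) and 43 of 93 (46.2%) were lost. The 8 ligand genes had few acetylated regions, of which 3 of 9 and 1 of 9 were lost. Promoter acetylation of the signal transducers was present at 14 of 14 genes in WT and Ep300Δ/Δ cells and 13 in both *Tet2*-null lists, and that of the other receptors at 19, 18, 17, and 16 of 26. H3K4me3 was called at 14 of 14 transducer promoters in every list.

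By covered length of the 3 marks over the 12 lists, the protein-coding gene most like *Ifngr1* outside the receptor windows was *Tbc1d9b*, with a mean absolute difference of 0.143 on the log2(kb + 0.1) scale, and the one most like *Csf2ra* was *Smyd1* (0.183). For the other members these were *Csf3r* and *Psmd11* (0.189), *Il6st* and *Qrsl1* (0.199), *Csf2rb2* and *Mrpl33* (0.207), *Csf2rb* and *Pde10a* (0.231), *Il6ra* and *Clstn1* (0.246), *Csf1r* and *Fbxw8* (0.270), *Il3ra* and *Rlim* (0.302), and *Il5ra* and *Cspp1* (0.313). Likeness here describes covered length alone.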

How the data were processed

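Reads were trimmed with cutadapt 1.15, aligned to mm10 with BWA 0.7.13, and cleared of duplicates with Picard by the authors, who called peaks against H3 libraries with MACS2 2.1.1.20160309 (versions per the submitters' processing notes). The deposited lists give a fold enrichment (a ratio over H3), a −log10 *P* value, a −log10 *q* value, and a score for each peak. Fold and *q* ranked or filtered peaks within a list, and the *P* value and score were not used. The 8 samples for H3 and H3K27me3 were not analysed here. Labels call the libraries single-end, whereas the methods describe paired-end 75-bp reads. Spike-in scaling is not described for these lists. In the Ep300Δ/Δ H3K27ac list 1630 peaks had a *q* above the stated 0.05, against 143 to 267 in the other H3K27ac lists. The methods state this limit for peaks called from pseudo-replicates, which were then overlapped. Whether the deposited *q* is the value that was filtered is not stated, so setting it against 0.05 is a choice made here.

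Pairs of lists were merged and compared with Python 3.11.15, pandas 2.3.3, and pysam 0.24.0, and the code was tested on simulated data against bedtools 2.31.1. Members, gene lists, and named regions were chosen with earlier results of these data known. Named regions were start regions, and the strongest, lost, and gained regions outside promoters, and others were added after their values were seen. Intervals are exact Clopper-Pearson. With 1 library per genotype there was no test. Alternatives varied overlap, *q*, list size, strength, window, gene assignment, promoter width, and motif window.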

Additional observations from a re-analysis of the deposited data

Results flagged for a closer look

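At 2 genes, the length covered by H3K27ac moved in opposite directions with *Ep300* deletion on the 2 backgrounds, and the difference between backgrounds was not tested, since each genotype has 1 library. The share of all protein-coding genes that moved in this way was not computed, so whether 2 is many or few is unknown. At *Il6ra*, covered length was 1.53 kb in WT and 1.79 kb in Ep300Δ/Δ cells, a difference of 0.263 kb, and 0.681 kb in Tet2-/- and 0.435 kb in Ep300Δ/ΔTet2-/- cells, a difference of -0.246 kb. The 2 peaks that were new in Ep300Δ/Δ cells had deposited *q* values above the stated 0.05. At *Il5ra*, covered length was 1.55 kb in WT and 0.997 kb in Ep300Δ/Δ cells, a difference of -0.554 kb, and 1.20 kb in Tet2-/- and 2.01 kb in Ep300Δ/ΔTet2-/- cells, a difference of 0.813 kb. These lengths include the *Trnt1* start, a neighbor in the same window, the intronic *Il5ra* region absent from Tet2-/- cells, and an intronic region of 406 bp called in Ep300Δ/ΔTet2-/- cells alone.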

How the results depend on the processing

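No paired analysis was possible because each genotype and mark has 1 library, and no replicate could be left out. Of 393 values recomputed under alternatives, 238 equaled the reported count or differed from it by a factor of at most 1.5, and 155 did not. The cause was not tested except where fewer peaks enter by construction. H3K27ac peaks, 45, 31, 34, and 22 in WT, Ep300Δ/Δ, Tet2-/-, and Ep300Δ/ΔTet2-/- cells, became 83, 70, 62, and 48 with 100 kb, 21, 18, 16, and 10 within gene bodies, 37, 13, 29, and 19 with a −log10 *q* of at least 5, and 26, 21, 26, and 22 with lists of equal size, lower after *Ep300* deletion in each of these. In the following, the share over all regions under the same setting stands in parentheses. From WT to Ep300Δ/Δ cells, 20 of 44 H3K27ac regions were lost with windows of 30 kb (39.7%), 33 of 82 with 100 kb (39.7%), 7 of 20 within gene bodies alone (39.7%), 8 of 25 with lists of equal size (24.1%), and 0 of 16 when only regions with a peak above the median fold of the first list were counted and any peak of the second list counted as present (12.9%). Gained were 2 of 26 (12.8%), 10 of 59 with 100 kb (12.8%), 1 of 18 with lists of equal size (16.8%), 1 of 22 with regions whose nearest coding start was a receptor gene (12.8%), 0 of 12 with a −log10 *q* of at least 5 (4.46%), 0 of 7 when only regions above the median fold of the second list were counted (1.81%), and 0 of 22 with a deposited *q* under 0.05 (10.6%), an alternative chosen after seeing the data. From Tet2-/- to Ep300Δ/ΔTet2-/- cells, 17 of 34 were lost (37.8%), 9 of 16 within gene bodies (37.8%), 9 of 26 with lists of equal size (23.5%), and 3 of 16 above the median fold of the first list (11.8%). Gained were 4 of 21 (15.0%), 2 of 14 with 10 kb (15.0%), 8 of 46 with 100 kb (15.0%), 2 of 9 within gene bodies (15.0%), 2 of 18 with a −log10 *q* of at least 5 (11.7%), and 0 of 8 above the median fold of the second list (2.74%). Peaks near a caller's threshold can be missed at lower depth, which these lists do not show, so absence from a list is not absence of the mark.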
